A study of Mus musculus with 6 samples.

Results

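The genes described here mark the glia of the central nervous system that reach into the base of the auditory nerve. They are 10 of the 17666 genes of the table, chosen by name: 8 markers of oligodendrocytes (Mog, Mobp, Cldn11, Olig1, Olig2, Opalin, Ermn and Hapln2) and 2 of astrocytes (Gfap and Aqp4). All 10 were in the table with a value above 0 in every library, as most genes of the table were. The nerves were microdissected from the cochleas of young adult mice aged 1.5 to 2.5 months and profiled by RNA sequencing. There were 3 samples from wildtype C57 mice and 3 from C57 mice labelled FactorB KO, a knockout of complement factor B (gene Cfb), and each sample pooled the 2 cochleas of 1 mouse. The sources used here give neither the substrain nor how the Cfb allele was made. The comparison asked how the nerve transcriptome differs between these genotypes.

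The auditory nerve is myelinated by different cells along its course. Schwann cells, which carry Pmp22 in their myelin, wrap the fibres within the cochlea, and oligodendrocytes, which carry Mog and Mobp, wrap them on the brain side of a glial transition zone where astrocytes also end. Some of the markers are not exclusive to these cells in the ear: Cldn11 also seals the basal cells of the stria vascularis, Gfap can be made by non-myelinating Schwann cells, and Aqp4 is found in supporting cells of the organ of Corti. Position along the nerve was not measured, so these data show the presence of the transcripts in the dissected tissue and not where they lay.

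The 5 markers of mature oligodendrocytes (Mog, Mobp, Opalin, Ermn and Hapln2) had the same order of the wildtype libraries (replicate 2 highest, replicate 3 lowest), while Mog was lower relative to each of the other 4 in every knockout library than in any wildtype one. The promoters of 4 of them are printed here to show what they have in common and where they differ. Each is the 250 bases before the transcription start in RefSeq's annotation of GRCm38.p6 (mm10), written in the direction of the gene. The Mobp promoter is at chr9:120149492-120149741, plus strand, that of Hapln2 at chr3:88027512-88027761, minus strand, that of Ermn at chr2:58052865-58053114, minus strand and that of Mog at chr17:37023399-37023648, minus strand. Capitals mark, on either strand, the letters ACAAAG and ACAATG, cores bound by Sox factors such as Sox10, and CTGGCAC and CTGGTAC, forms of the motif of the oligodendrocyte factor Myrf.
Mobp: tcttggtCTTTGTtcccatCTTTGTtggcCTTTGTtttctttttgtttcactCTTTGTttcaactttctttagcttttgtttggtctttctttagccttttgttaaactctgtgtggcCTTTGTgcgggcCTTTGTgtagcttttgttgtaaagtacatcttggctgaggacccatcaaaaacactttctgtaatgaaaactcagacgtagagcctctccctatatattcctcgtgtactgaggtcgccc
Hapln2: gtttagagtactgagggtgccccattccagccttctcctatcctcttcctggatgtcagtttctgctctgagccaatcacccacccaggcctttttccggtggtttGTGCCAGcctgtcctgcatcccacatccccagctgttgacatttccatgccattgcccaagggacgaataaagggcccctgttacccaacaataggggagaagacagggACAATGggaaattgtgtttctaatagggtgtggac
Ermn: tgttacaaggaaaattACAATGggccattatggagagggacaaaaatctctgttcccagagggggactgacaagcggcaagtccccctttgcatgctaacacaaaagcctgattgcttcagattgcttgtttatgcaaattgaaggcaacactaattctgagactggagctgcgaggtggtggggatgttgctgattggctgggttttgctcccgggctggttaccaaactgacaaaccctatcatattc
Mog: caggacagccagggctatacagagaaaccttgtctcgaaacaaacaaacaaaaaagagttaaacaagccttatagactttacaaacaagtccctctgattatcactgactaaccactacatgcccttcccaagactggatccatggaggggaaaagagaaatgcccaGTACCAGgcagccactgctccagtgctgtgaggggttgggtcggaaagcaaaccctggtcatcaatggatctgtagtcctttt
Among 32851 promoter windows of the same length, ACAAAG was present in 16.5%, ACAATG in 10.7%, CTGGCAC in 4.19% and CTGGTAC in 1.83%. The Mobp window held ACAAAG 6 times, always on the opposite strand (CTTTGT), and it was the only 1 of the 32851 windows with 6 or more matches. The Hapln2 window held ACAATG and CTGGCAC 1 time each, the Ermn window held ACAATG 1 time, and the Mog window held CTGGTAC 1 time and neither Sox core. RefSeq windows were matched for 8 of the 10 genes, all except Olig1 and Aqp4. Of the windows not printed, that of Opalin held ACAAAG 1 time and that of Olig2 held ACAATG 1 time. The Cldn11 and Gfap windows held neither Sox core and neither Myrf form, so the lack of a Sox core was not particular to Mog. A match describes the letters and does not show binding.

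Log2 differences are knockout minus wildtype label of log2(value + 1), which makes changes of scarce genes look smaller. The values are normalized counts, gene counts that the authors had scaled for each sample and then rounded. The values of a library summed to between 38675077 and 41496282, which the scaling sets, so the number of reads behind each value is unknown. Cfb itself went against the labels, with 55, 39 and 116 normalized counts under the wildtype label and 336, 351 and 376 under the knockout label (log2 difference 2.47, adjusted p = 0.107 by limma). All directions are therefore between libraries as labelled. Libraries labelled wildtype also differed more among themselves: the median SD of log2 values over the 14214 genes whose mean reached 50 was 0.253 in them and 0.11 in the other 3.

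The dissected nerve held oligodendrocyte transcripts in every library. Besides the 8 oligodendrocyte genes, all 22 further genes of a list of oligodendrocyte genes were above 0 in each library. Only 146 to 330 of the 17666 genes were at 0 in any 1 library, so a value above 0 was usual for any gene. Mag, an adhesion protein of the inner myelin face that Schwann cells also make, had 5594 to 11715 normalized counts. Genes listed for central neurons were at unequal levels, and which cells of the tissue made their transcripts was not tested. Of 10 measured genes on that list, 4 were at 0 in at least 1 library, among them Gabra6, a receptor subunit of granule cells, with 0 to 26 normalized counts, Slc32a1, the vesicular transporter of inhibitory neurons, with 0 to 22, and Neurod6 with 0 to 5. Slc17a6, a glutamate transporter of excitatory neurons, had 3728 to 10302 normalized counts, Cbln1 126 to 661 and Gad1 72 to 379. The 9 genes other than Slc17a6 summed to 375 to 1150 under the wildtype label and 976 to 1290 under the knockout label.

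Levels of different genes were compared as normalized counts per kilobase of the longest transcript with a RefSeq match. Gfap, the intermediate filament of astrocytes, was highest, with a mean over the 6 libraries of 7271 per kilobase, followed by Cldn11, a tight junction protein of myelin, with 5833, and Mobp, a basic protein of compact central myelin, with 2384. Aqp4, the water channel of astrocyte endfeet, had 1759 per kilobase and Mog, a surface glycoprotein on the outermost myelin layer, 1341. Hapln2, which links matrix at central nodes of Ranvier, had 705.3, Ermn, a late cytoskeletal protein of myelinating oligodendrocytes, 677.9, and Olig1, a transcription factor of the lineage, 562.9 per kilobase. Olig2, the partner factor of Olig1, had 73.91 per kilobase and Opalin, a membrane protein of central myelin, 15.68. In this order of levels per kilobase, Cldn11 lay above Mobp, Mobp above Aqp4, Mog above Hapln2, Ermn above Olig1, Olig1 above Olig2, and Olig2 above Opalin in 6 of 6 libraries. Gfap lay above Cldn11 in 4 of 6, Aqp4 above Mog in 5 of 6 and Hapln2 above Ermn in 5 of 6, and the mean log2 gap between the members of each of these pairs was smaller than the larger SD over libraries. For Ermn and Olig1 that gap was also below the SD (0.42 SDs), although the order was the same in every library.

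**Figure D1:**
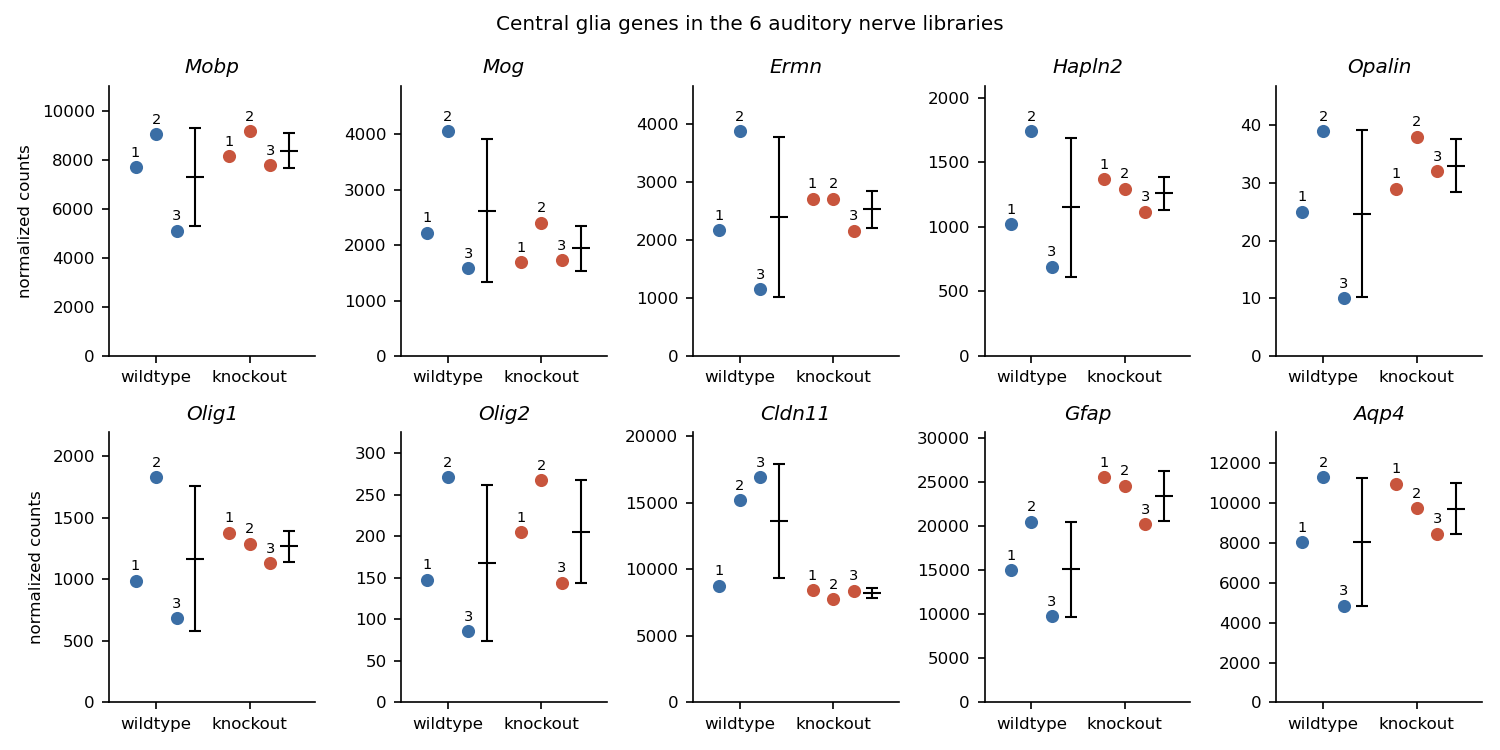
Normalized counts (vertical axes, from 0) of the 10 central glia genes in each library, by label; numbers give the replicate and bars the mean ± SD of 3 libraries. Wildtype replicate 3 was the lowest of the 6 libraries for 9 genes, and for Cldn11 it was the highest.

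Among the structural genes of central myelin, Mobp (chr9:120149742-120181488, mm10) had 7710, 9056 and 5116 normalized counts in wildtype replicates 1, 2 and 3 and 8155, 9183 and 7787 in knockout replicates 1, 2 and 3. Wildtype replicate 3 stood low, and the other 5 libraries lay close together. The label means of 7294 ± 2003 and 8375 ± 724 (SD, n = 3 each) gave a log2 difference of 0.24 with a 95% interval from -0.27 to 0.74 (limma adjusted p = 0.567). Without wildtype replicate 3 the difference was 0.00, with an interval from -0.29 to 0.28.

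Ermn (chr2:58045115-58052864) had 2165, 3881 and 1154 normalized counts under the wildtype label and 2714, 2709 and 2163 under the knockout label. Knockout replicates 1 and 2 lay between wildtype replicates 1 and 2, and knockout replicate 3 just under wildtype replicate 1. The log2 difference was 0.24 (95% interval -0.70 to 1.18, limma adjusted p = 0.773), and -0.20 without wildtype replicate 3. Exons of Galnt5 overlap those of Ermn on the opposite strand in GENCODE M21, and Galnt5 had 24 to 66 normalized counts.

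Hapln2 (chr3:88020558-88027511) had 1021, 1744 and 691 normalized counts under the wildtype label and 1369, 1298 and 1118 under the knockout label. Opalin (chr19:41061959-41077113), the scarcest of the 10 genes, had 25, 39 and 10 against 29, 38 and 32. In both genes every knockout value lay inside the wildtype range. The log2 difference was 0.23 for Hapln2 (95% interval -0.51 to 0.97, limma adjusted p = 0.717) and 0.58 for Opalin (95% interval -0.59 to 1.76, limma adjusted p = 0.543). Without wildtype replicate 3 these differences were -0.09 and 0.07.

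Mog (chr17:37010740-37023398) had 2227, 4063 and 1587 normalized counts under the wildtype label and 1690, 2407 and 1733 under the knockout label. Knockout replicates 1 and 3 lay near the lowest wildtype library, and the groups overlapped. The means were 2626 ± 1285 and 1943 ± 402 (SD, n = 3 each). The log2 difference of -0.34 had the opposite sign to those of the other 4 mature markers (95% interval -1.13 to 0.45, limma adjusted p = 0.599). It rested on wildtype replicate 2, without which it was 0.03, and it was -0.65 without wildtype replicate 3. Mog lies on the chromosome of Cfb, 2.15 Mb beyond its end.

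The transcription factors of the lineage had the same highest and lowest library as Mog, Opalin, Ermn and Hapln2. Olig2 (chr16:91225550-91228677) had 148, 271 and 86 normalized counts under the wildtype label and 205, 268 and 144 under the knockout label. Its neighbour Olig1 (chr16:91269769-91271939), which begins 41.1 kb further on, had 990, 1827 and 685 against 1379, 1289 and 1132. Both genes had wildtype replicate 2 highest and wildtype replicate 3 lowest, and all knockout values lay within the wildtype range. The log2 differences were 0.40 for Olig2 (95% interval -0.63 to 1.43, limma adjusted p = 0.643) and 0.23 for Olig1 (95% interval -0.55 to 1.01, limma adjusted p = 0.729). Without wildtype replicate 3 they were -0.01 and -0.09.

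Cldn11 (chr3:31149920-31164326) was the only gene of the 10 whose labels did not overlap, with 8781, 15184 and 16902 normalized counts under the wildtype label and 8418, 7756 and 8404 under the knockout label. Of all genes tested, 28.5% did not overlap, 14.9% with the knockout label below and 13.6% with it above, where 0 of the 10 genes were. Wildtype replicate 1 lay just over the highest knockout value, and the gap between the labels came from wildtype replicates 2 and 3. The mean was 13622 ± 4280 under the wildtype label and 8193 ± 378 under the other (SD, n = 3 each), 1.66-fold lower. The log2 difference of -0.68 (95% interval -1.25 to -0.11) did not pass by limma (adjusted p = 0.203, unadjusted p = 0.0261). It passed without wildtype replicate 1 (-0.97, limma adjusted p = 0.0463), when 0.492% of all genes passed, and was -0.50 without wildtype replicate 3.

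Cldn11 did not follow the other oligodendrocyte genes across libraries, and genes of the lateral wall of the cochlea are given beside it. Of 12 listed genes of the stria vascularis and spiral ligament, 7 were measured and the other 5 were not analysed here. Their mean log2 deviation was -0.99, 0.10 and 1.66 in wildtype replicates 1, 2 and 3 and -0.39, -0.47 and 0.09 in knockout replicates 1, 2 and 3, so wildtype replicate 3 was highest for the list as for Cldn11. Their summed level was 417071 to 772230 under the wildtype label and 356910 to 475713 under the knockout label, most of it Coch, a matrix protein of the spiral ligament. Tyr, the pigment enzyme of intermediate cells, had 3, 268 and 3775 normalized counts against 8, 17 and 207, and weighs most in the mean deviation. Atp6v1b1, a proton pump subunit, was at 0 in 3 libraries. Wildtype replicate 3 was the highest of the 6 libraries for 5 of the 7 genes, and the share of all genes highest there was not computed. The part of these cells in the Cldn11 values was not tested.

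Among the astrocyte genes, Gfap (chr11:102887336-102897200) had 14999, 20478 and 9753 normalized counts under the wildtype label and 25504, 24549 and 20239 under the knockout label. Knockout replicate 3 fell just under wildtype replicate 2, and that was the only overlap. The mean was 15077 ± 5363 under the wildtype label and 23431 ± 2805 under the other (SD, n = 3 each), 1.55-fold higher. The log2 difference of 0.69 (95% interval 0.06 to 1.33) did not pass by limma (adjusted p = 0.225, unadjusted p = 0.0363). It was positive in every leave-out of 1 library, from 0.41 without wildtype replicate 3 to 0.95 without wildtype replicate 2. The 10 listed genes of non-myelinating Schwann and satellite cells had a median log2 difference of 0.43, against 0.006 over all genes. By limma 0 of those 10 passed. The part of these cells in the Gfap values was not tested.

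Aqp4 (chr18:15389394-15410982) had 8032, 11282 and 4849 normalized counts under the wildtype label and 10977, 9734 and 8454 under the knockout label, so that every knockout value lay within the wildtype range. The log2 difference was 0.35 (95% interval -0.35 to 1.04, limma adjusted p = 0.541). It was 0.02 without wildtype replicate 3.

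Over the 10 genes, 0 passed an adjusted p of 0.05 by limma, against 0.158% of all genes tested. At an unadjusted p under 0.05 by limma there were 2 of 10, Cldn11 and Gfap, against 20.0% of all genes. In the authors' deposited table, 0 of 10 had a false discovery rate under 0.05, against 7.39% of the genes that have a rate, and the lowest rate was 0.055 for Cldn11. The log2 difference was positive for 8 of 10 genes and for 50.7% of all genes, with medians of 0.24 and 0.006. The median of the 10 genes was 0.62 without wildtype replicate 2 and -0.05 without wildtype replicate 3. The 95% interval of each gene but Mobp reached at least 0.97 away from 0 on the log2 scale on 1 side, so differences near 2-fold lay within the error. In tissue samples of this kind, fewer cells of a type and less RNA per cell cannot be told apart.

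**Figure D2:**
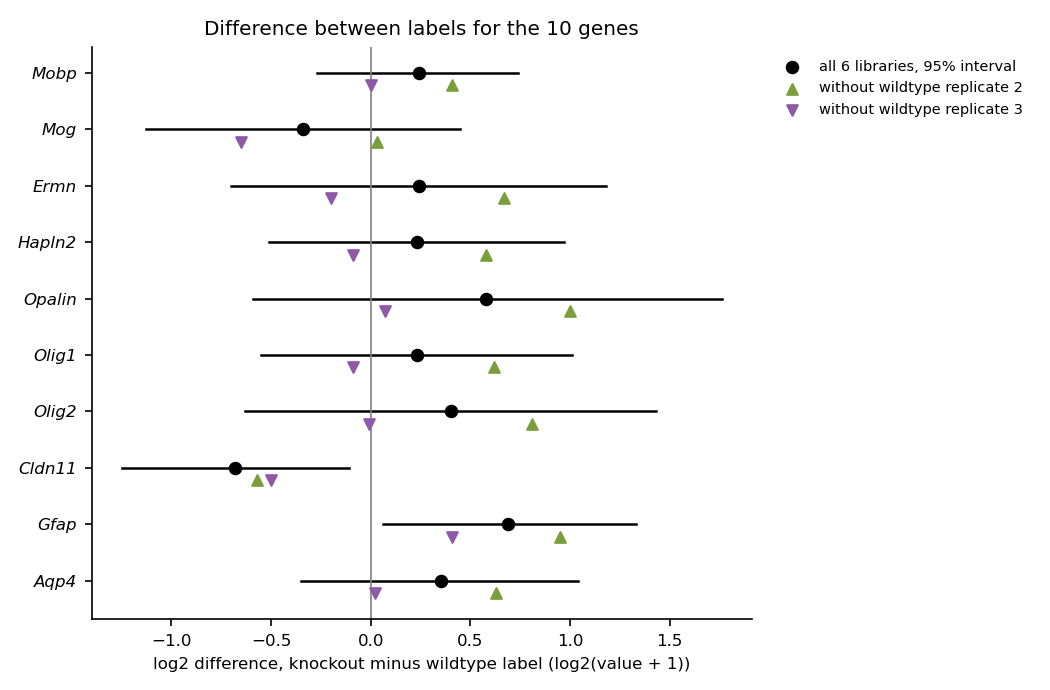
Log2 difference of each gene between labels (horizontal axis, knockout minus wildtype, log2(value + 1) scale) with its 95% interval from limma, and the same difference without wildtype replicate 2 or 3. Leaving out wildtype replicate 2 moved all 10 values up, and leaving out replicate 3 moved 9 of them down and that of Cldn11 up.

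Central glia transcripts varied widely between mice of the wildtype label. Wildtype replicate 2 was highest, replicate 1 in the middle and replicate 3 lowest of the wildtype libraries for 9 of the 10 genes, all but Cldn11, an order that 18.7% of all genes had. The lowest of all 6 libraries was wildtype replicate 3 for the same 9 genes, against 26.3% of all genes, and for 7 of them wildtype replicate 2 was also the highest, against 6.81%. For Ermn the highest wildtype library was 3.36-fold over the lowest, for Opalin 3.90-fold and for Olig2 3.15-fold. The same ratios within the knockout label were 1.25, 1.31 and 1.86. The median SD of log2 values over the 10 genes was 0.678 under the wildtype label and 0.184 under the knockout label, and it was larger under the wildtype label for each of the 10 genes, as it was for 84.6% of genes with a mean of at least 50.

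**Figure D3:**
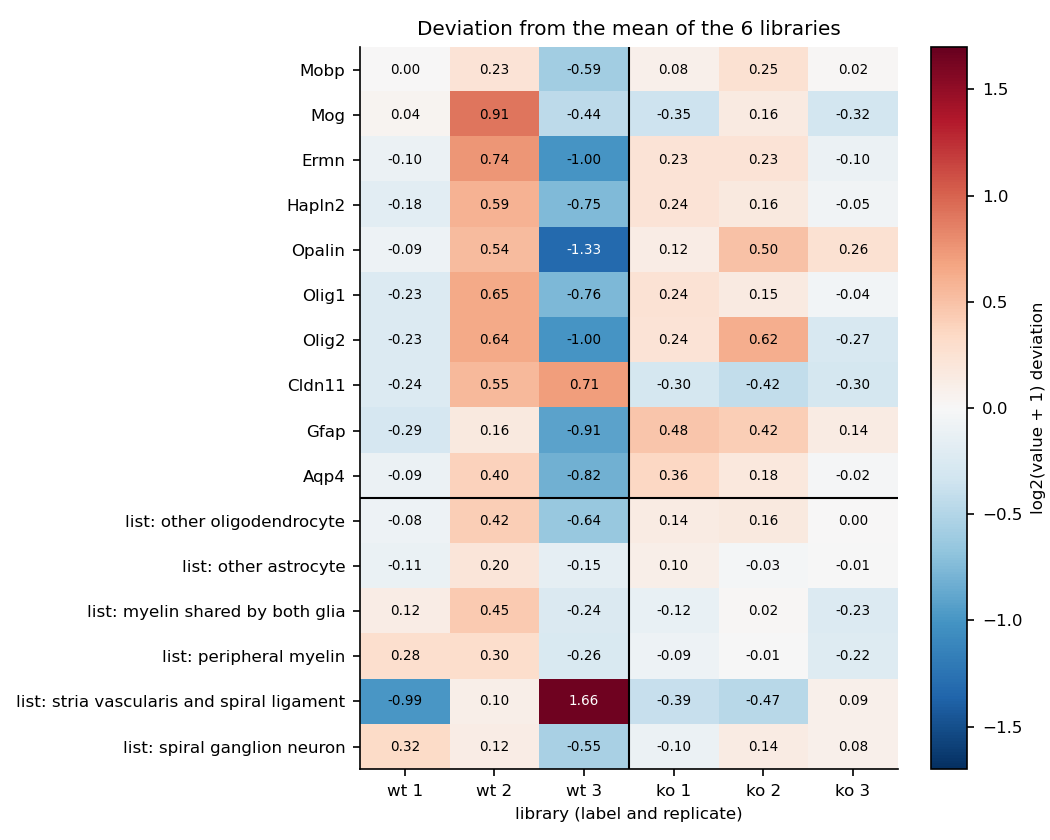
Deviation of log2(value + 1) from the mean of the 6 libraries for the 10 genes (above the line) and the mean deviation of 6 marker lists (below it); columns are libraries, wt for the wildtype and ko for the knockout label. Wildtype replicate 3 was at -1.33 for Opalin and -0.75 for Hapln2, while the lateral wall list, in whose mean Tyr weighs most, was at 1.66 there.

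Of the 22 further oligodendrocyte genes, wildtype replicate 3 was the lowest of the 6 libraries for 17, against 26.3% of all genes. Wildtype replicate 2 was the highest for 16, and the share of all genes highest there was not computed. The mean deviation of the list was -0.08, 0.42 and -0.64 in wildtype replicates 1, 2 and 3 and between 0.00 and 0.16 under the knockout label. By limma 0 of 22 passed, with 2 at an unadjusted p under 0.05 against 20.0% of all genes, and 0 were called in the authors' deposited table against 7.39%. Lhfpl3, made by oligodendrocyte precursors, and Mag were the most abundant, with log2 differences of -0.13 and 0.20. The labels did not overlap for 2 of the 22, a smaller proportion than the 28.5% of all genes, and these 2 were picked out after their values were seen. Myrf, the factor that switches on central myelin genes, had 1593, 1824 and 841 normalized counts against 2456, 2443 and 2285 (log2 difference 0.83, limma adjusted p = 0.191), and Hhip, an inhibitor of hedgehog ligands, had 2616, 2680 and 1338 against 3071, 3343 and 3881 (log2 difference 0.70, limma adjusted p = 0.227).

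The further genes listed for astrocytes were divided, and which cells of the tissue made their transcripts was not tested. By limma 0 of 20 passed, with 2 at an unadjusted p under 0.05 against 20.0% of all genes, and 0 were called in the authors' deposited table against 7.39%. Wildtype replicate 3 was the lowest library for 13 of the 20, against 26.3% of all genes. It was the highest for 6, and for that count the share of all genes was not computed. The most abundant, S100b, a calcium-binding protein, and Glul, which makes glutamine, were of the second kind, with 159577 and 122101 normalized counts in that library against 33926 to 52049 and 36528 to 56307 in the rest. Slc1a2, the main glutamate transporter of astrocytes, had 5051, 5630 and 3197 against 7093, 7153 and 6666 (log2 difference 0.63, limma adjusted p = 0.191), and Slc4a4, a bicarbonate transporter, 5467, 4424 and 2430 against 6319, 6259 and 5985 (log2 difference 0.67, limma adjusted p = 0.244). These 2 genes were higher in each knockout library than in any wildtype one and Glul was lower in each, so that 3 of 20 did not overlap against 28.5% of all genes. They were picked out after their values were seen.

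Ratios between genes of 1 library do not depend on how the libraries were scaled, and they were examined for all 45 pairs of the 10 genes after the values had been seen. In 20 of the 45 pairs (44.4%) the ratio did not overlap between labels, against 27.6% of all pairs of genes with a mean of at least 10. The pairs share genes and are not independent. Every one of the 20 held Mog, Cldn11 or Gfap, and among the 21 pairs without these genes 0 did not overlap. An exact permutation test of 3 against 3 cannot give a two-sided p below 0.1, which each of the 20 pairs had, and the value adjusted over the 45 pairs was 0.225.

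Mog was lower relative to 8 of the other 9 genes, all but Cldn11, in every knockout library than in any wildtype library. Its ratio to Hapln2 was 2.18, 2.33 and 2.30 under the wildtype label and 1.23, 1.85 and 1.55 under the knockout label. The ratio to Olig1 was 2.25, 2.22 and 2.32 against 1.23, 1.87 and 1.53. The wildtype libraries, which differed 2.56-fold in Mog itself, thus had nearly equal ratios, and the knockout libraries lay below them by 1.49-fold on average for either gene. To Ermn the ratio was 1.03, 1.05 and 1.38 against 0.623, 0.889 and 0.801, and to Mobp 0.289, 0.449 and 0.310 against 0.207, 0.262 and 0.223.

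Gfap was higher relative to 7 of the other 9 genes, all but Olig2 and Opalin, in every knockout library than in any wildtype library. Its ratio to Aqp4, the other astrocyte gene, was 1.87, 1.82 and 2.01 under the wildtype label and 2.32, 2.52 and 2.39 under the knockout label, 1.27-fold higher on average. To Hapln2 the ratio was 14.7, 11.7 and 14.1 against 18.6, 18.9 and 18.1. The summed level of the 2 astrocyte genes was 1.752, 1.691 and 1.706 times that of the 5 mature oligodendrocyte genes under the wildtype label and 2.614, 2.193 and 2.236 times under the knockout label. This ratio did not overlap between labels, as 27.6% of ratios between single genes did not. The sums hold Gfap and Mog. Ratios of Aqp4 alone to Mobp, Opalin, Ermn and Hapln2 overlapped between labels, and its ratio to Mog did not.

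**Figure D4:**
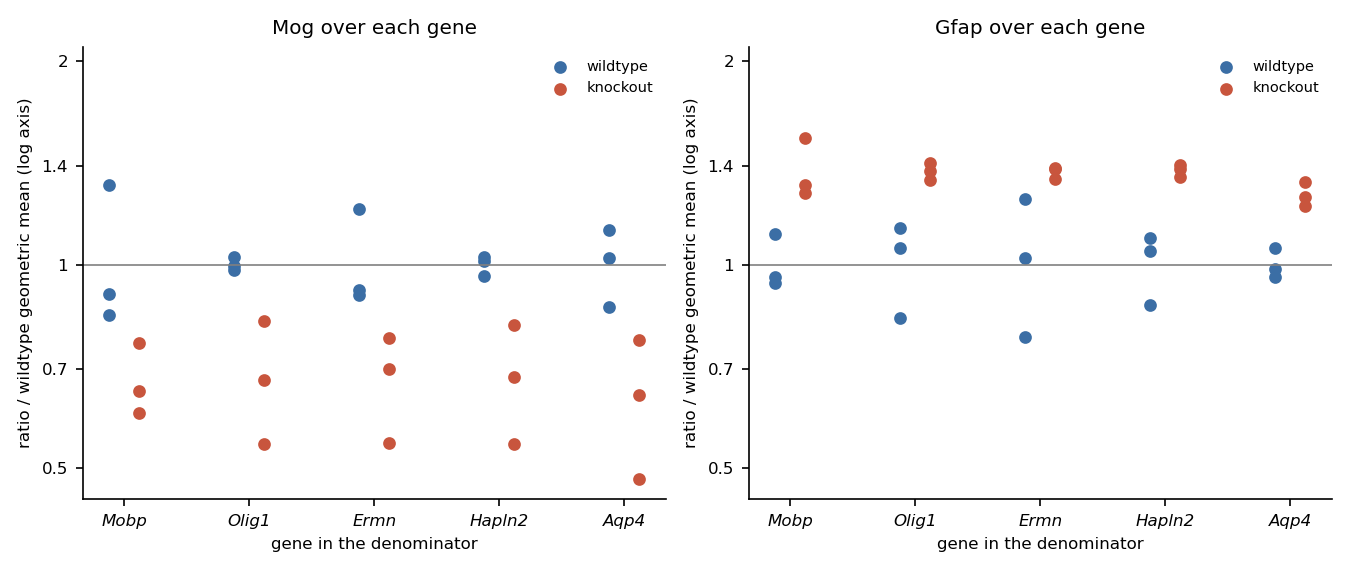
Ratio of Mog (left) and of Gfap (right) to 5 other genes in each library, divided by the geometric mean of the wildtype libraries (vertical axis, log scale); each point is 1 library. All knockout points lie below the wildtype points for Mog and above them for Gfap. The pairs drawn are all ones that did not overlap between labels. The ratios of Gfap to Olig2 and Opalin and of Mog to Cldn11 overlapped and are not drawn.

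A fit of limma with the mean deviation of the 22 further oligodendrocyte genes as a covariate, chosen after the data were seen, was run over all genes. In it the log2 difference of Mog was -0.60 (95% interval -0.97 to -0.23, limma adjusted p = 0.0689) and that of Gfap 0.49 (95% interval 0.22 to 0.75, limma adjusted p = 0.0543). Neither passed, while 6.40% of all genes did. Cldn11 was at -0.64 (95% interval -1.26 to -0.03, limma adjusted p = 0.165) and Opalin at 0.24. Mobp, Olig1, Olig2, Ermn, Hapln2 and Aqp4 had differences between -0.10 and 0.11. The covariate has the same order of the wildtype libraries as these genes, so small differences were partly set by the fit.

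Peripheral myelin was compared because Schwann cells myelinate the nerve within the cochlea. The 5 mature oligodendrocyte genes summed to 4.21, 6.18 and 4.25 per 100 normalized counts of 13 peripheral myelin genes under the wildtype label and to 7.19, 7.01 and 6.65 under the knockout label. These ratios of 2 separate sums did not overlap between labels, as 27.6% of ratios between single genes did not. The oligodendrocyte sum itself was 13496 ± 5121 and 14142 ± 1410 (SD, n = 3 each), and the peripheral sum 272464 ± 61798 and 203377 ± 17005. Of the 13 peripheral genes, 0 passed by limma and 3, Pmp22, Ncmap and Cdh19, were called as lower in the authors' deposited table, by 1.69-, 1.58- and 1.31-fold, against 7.39% of all genes with a rate called in either direction. Of 11 myelin genes that both glia make, 2, Mal and Cryab, were called as lower there, by 1.61- and 1.59-fold, beside the same 7.39%. Mbp, among the most abundant of these 11, had a log2 difference of -0.21 by limma (adjusted p = 0.755).

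The genes most like the 5 mature markers were found as those with the smallest root-mean-square distance, in log2 units over the 6 libraries, to their mean centred profile, among 14205 genes with a mean of at least 50. They were Serpinb1a (0.085), Gpr62 (0.091), Tmem88b (0.094), Neu4 (0.10), Slc6a9 (0.103) and Agpat4 (0.109). The median distance over all ranked genes was 0.485. Of the 5 markers, which make up the mean profile, Hapln2 lay at 0.101, Ermn at 0.12 and Mobp at 0.182. Opalin lay at 0.261 and Mog at 0.292. Outside these 5, Olig1 lay at 0.115, Aqp4 at 0.15, Olig2 at 0.215, Gfap at 0.284 and Cldn11 at 0.71. The astrocyte gene Aqp4 was thus nearer to the profile than Mobp, Opalin or Mog. Tmem88b and Neu4 are on the list of further oligodendrocyte genes. Nearest to Gfap were Nppc (0.063), which encodes C-type natriuretic peptide, Slc6a12 (0.08), a betaine transporter, Psd2 (0.097), Tmem132b (0.102), Kcnj14 (0.108) and 2900005J15Rik (0.115), against a median of 0.524.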

How the data were processed

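Per the labels' protocols, RNA was purified with the miRNeasy Mini Kit, degraded or contaminated samples were excluded, and libraries were made with the TruSeq RNA kit. The submitters' processing notes name TopHat2, DESeq2, Partek and mm10 without roles. Versions, annotation release, strand setting and filters are not given in the sources used here. Values in the deposited table are a score made by the authors: gene counts scaled per sample and rounded, read from whole values with median-of-ratios factors of 1.0038 to 1.0068. They are not raw counts, so no count test was run. The deposited table also gives the authors' false discovery rate and signed fold change, per the file headers. No rate is given for 2061 genes, and 0 sample columns were left unused.

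Limma 3.58.1 in R 4.3.3 was fitted to log2(value + 1) of all 17666 genes (mean of at least 1) with label as the only term, eBayes with a trend and Benjamini-Hochberg adjustment at 0.05, and was tested on simulated data. Transcript lengths came from GENCODE M21. The p-values measure the spread between these mice. The 10 genes and the marker lists were chosen with earlier results of these data known. All 10 genes are named; in each other list up to 4 genes past the threshold or, with none, the 2 most abundant, and the 6 nearest genes by profile. Some genes named by this rule are not reported here. Others are marked as picked after their values were seen; the ranges given for markers of central neurons, for Tyr and Atp6v1b1, and the genes called in the authors' deposited table were too. Lists on microglia, choroid plexus, non-myelinating Schwann and satellite cells, spiral ganglion neurons, organ of Corti and red cells are described in the closing section. Alternatives were other pseudocounts, filters, scalings, no trend, array weights, a replicate block, a transcript length correction and leaving out each library.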

Additional observations from a re-analysis of the deposited data

How the results depend on the processing

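Other pseudocounts, filters, scalings and no trend kept the sign of each of the 10 genes, and 0 of the 10 passed by limma under them. With array weights the log2 difference of Ermn was -0.01, that of Mobp 0.10, Olig1 0.06, Olig2 0.19, Opalin 0.29, Hapln2 0.06 and Aqp4 0.16, and the median of the 10 genes 0.08, and with the oligodendrocyte covariate Olig1 was -0.03, Ermn -0.10 and Hapln2 -0.02, and the median of the 10 genes was 0.02; the cause was not tested. Leaving out 1 library at a time gave ranges of -0.65 to 0.03 for Mog, 0.00 to 0.41 for Mobp, -0.97 to -0.50 for Cldn11, -0.09 to 0.62 for Olig1, -0.01 to 0.81 for Olig2, -0.20 to 0.67 for Ermn, -0.09 to 0.58 for Hapln2, 0 to 1 for the number of the 10 genes past the threshold (Cldn11 without wildtype replicate 1) and -0.05 to 0.62 for their median. The number of all genes that passed, 28, was 16 without the trend, 111 with array weights, 1131 with the covariate, and 0 to 566 when 1 library was left out; it was 0 without any 1 knockout library (1797 to 2218 genes at an unadjusted p under 0.05 by limma), 87, 2 and 566 without wildtype replicates 1, 2 and 3. After the transcript length correction Mog was at -0.19 and Gfap at 0.73.

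Replicate numbers 1 to 3 are shared between the labels. Same-numbered libraries had correlations of their deviations across genes of -0.05, 0.071 and 0.149, and wildtype replicate 1 correlated best with knockout replicate 2 (0.338), so the numbers were not taken as pairs. With the replicate block 7 genes passed, 0 of them among the 10, and the lowest adjusted p was 0.28 for Gfap. Reads per library are unknown, so no counting interval can be given for scarce genes such as Opalin.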

Other observations

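The remaining marker lists show what else the dissected tissue held, and by limma 0 members passed in any of them. Of all genes with a rate in the authors' deposited table, 7.39% were called. Of the 8 microglia genes, 1 was at an unadjusted p under 0.05 by limma, against 20.0% of all genes. Sall1 was called as higher in the authors' deposited table (1.74-fold), with 512, 585 and 862 normalized counts under the wildtype label and 1300, 1162 and 953 under the knockout label. P2ry12, a receptor of resting microglia, had 383, 540 and 259 against 345, 286 and 245. Cx3cr1, among the most abundant of the list, had a log2 difference of 0.68. Of the 10 central neuron genes, Gad1, an enzyme of inhibitory transmitter synthesis, was called as higher in the authors' deposited table (3.13-fold), with 72, 91 and 89 against 301, 379 and 109, while Gad2 had 11, 28 and 8 against 21, 19 and 23. Cbln1 and Slc17a6 had log2 differences of 0.83 and 0.13. The cells that made these transcripts were not determined.

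The list medians of the log2 difference were 0.43 for 10 genes of non-myelinating Schwann and satellite cells, 0.21 for 7 choroid plexus genes, 0.09 for 13 spiral ganglion neuron genes, 0.57 for 14 genes of the organ of Corti and -2.44 for 9 red cell genes, against 0.006 over all genes. Of the 14 organ of Corti genes, 5 were at an unadjusted p under 0.05 by limma (20.0% of all genes). The authors' deposited table called 3 of them as higher (7.39%), and 0 genes of the first 3 lists. The red cell genes were lower under the knockout label in all 9 cases by the fitted value, with 9 at an unadjusted p under 0.05 by limma (20.0% of all genes) and 8 called in the authors' deposited table (7.39%), and their level was highest in wildtype replicate 3 (mean deviation 2.58). Wildtype replicate 3, the lowest library for 9 of the 10 central glia genes, was thus the highest for red cell genes and for the lateral wall list. The part of these tissues in the central glia values was not tested.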
